A study of Homo sapiens with 25 samples.

Results

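Transcripts of 9 dual-specificity MAP kinase phosphatases, DUSP1, DUSP2, DUSP4, DUSP5, DUSP6, DUSP7, DUSP8, DUSP10 and DUSP16, were followed in 3 human cell lines after the EGFR kinase inhibitor erlotinib. They were chosen by name as members of 1 enzyme family and are 9 of the 19775 genes that a probe set on the array names alone. Every probe set annotated to exactly 1 of the 9 symbols was kept, 21 of 54613 in all, and for each gene the probe set with the highest mean over the 25 arrays leads. All 9 lead probe sets passed a filter on low values, which asks for more than log2 4 on 3 or more arrays, and were tested among 12643 genes. The lead probe set of DUSP2 passed it only through MDA-MB-453, and lay below 4 on every array of the other lines.

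The arrays hybridised total RNA from cultures with erlotinib added to 10 µM. BT20 is a basal breast cancer line rich in EGFR, with 4 arrays at 0 min and 3 arrays each at 30 min, 6 h and 24 h. MDA-MB-453 is a breast cancer line rich in ERBB2, and the third line is labelled only MCF; these lines have 3 arrays each at 0 min and at 24 h. The labels give the drug for the 0 min groups too, as 0 minutes after its addition, and give no genetic change for any group. No group was kept for 24 h without erlotinib, so the drug and the time in culture cannot be told apart in any comparison over time. The labels do not say whether replicates were separate cultures, so p-values measure the spread between these arrays, which may be technical.

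MAP kinase phosphatases switch off MAP kinases by removing the phosphates from the threonine and the tyrosine of the activation loop. DUSP1, DUSP2, DUSP4 and DUSP5 are the inducible nuclear enzymes, DUSP6 and DUSP7 are cytoplasmic enzymes selective for ERK, and DUSP8, DUSP10 and DUSP16 act mainly on JNK and p38. Several of these genes are themselves induced by ERK, the kinase that EGFR activates through RAS, RAF and MEK, and so form a feedback loop in epithelial cells.

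Promoter sequence from RefSeq (GRCh38.p14) was at hand for 7 of the 9 genes, DUSP10 with 2 starts. The 250 bases before each start were searched on both strands for the ETS core CCGGAA, the AP-1 site TGANTCA, the cyclic AMP response element TGACGTCA and the core of that element, TGACGT, which overlaps it. The sequences of DUSP6 and DUSP7 are shown because both genes fell in BT20, and those of DUSP1 and DUSP8 because no other of the 8 promoters held a match. Each is given 5′ to 3′ on the minus strand, on which the gene lies, and capitals mark the matches. Positions are chr12:89352502-89352751 for DUSP6, chr3:52056572-52056821 for DUSP7, chr5:172771196-172771445 for DUSP1 and chr11:1572272-1572521 for DUSP8.
DUSP6: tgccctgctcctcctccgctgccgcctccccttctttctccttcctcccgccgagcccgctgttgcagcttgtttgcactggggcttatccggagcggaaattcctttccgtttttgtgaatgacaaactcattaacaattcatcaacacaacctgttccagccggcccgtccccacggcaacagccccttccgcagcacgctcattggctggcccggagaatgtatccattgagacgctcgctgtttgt
DUSP7: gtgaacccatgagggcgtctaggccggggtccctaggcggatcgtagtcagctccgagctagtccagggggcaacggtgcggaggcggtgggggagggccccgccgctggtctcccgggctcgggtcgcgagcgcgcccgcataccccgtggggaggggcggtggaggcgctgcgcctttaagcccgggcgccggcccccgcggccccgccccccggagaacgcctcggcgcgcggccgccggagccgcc
DUSP1: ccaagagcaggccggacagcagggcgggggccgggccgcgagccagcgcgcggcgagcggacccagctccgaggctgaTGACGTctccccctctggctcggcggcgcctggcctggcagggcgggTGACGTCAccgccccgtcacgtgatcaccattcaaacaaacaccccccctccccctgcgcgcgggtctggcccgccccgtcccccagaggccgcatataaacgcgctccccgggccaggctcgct
DUSP8: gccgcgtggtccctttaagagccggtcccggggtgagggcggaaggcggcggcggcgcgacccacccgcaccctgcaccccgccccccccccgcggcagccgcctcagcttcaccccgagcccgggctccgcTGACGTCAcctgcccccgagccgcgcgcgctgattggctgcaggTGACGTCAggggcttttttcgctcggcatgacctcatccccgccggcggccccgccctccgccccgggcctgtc
The whole element TGACGTCA starts 125 bases before the start of DUSP1 and 118 and 74 bases before that of DUSP8, and DUSP1 holds a further core 172 bases before its start. Of 35116 promoters in the table, 1.65% held TGACGTCA, 7.1% the core, 14.5% CCGGAA and 6.57% TGANTCA within the same 250 bases. None of the 8 promoters held CCGGAA or TGANTCA in that window, which says only that these letters are not there.

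Before the results, 1 array has to be set apart. Over all genes tested, replicate 4 of BT20 at 0 min correlated with the 6 h arrays at r = 0.9896 to 0.9919 and with the other 0 min arrays at 0.9708 to 0.9747, while those others correlated at 0.9954 to 0.9981 among themselves. The labels name no batch. BT20 values are therefore given against all 4 arrays at 0 min, and beside them without replicate 4 and, for 6 h, against replicate 4 alone, a single array that is assumed to vary like the others. As a check of the labelled lines, EGFR was 12.38 ± 0.15 (SD, n = 4) in BT20 and 3.53 ± 0.20 (SD, n = 3) in MDA-MB-453 at 0 min, ERBB2 was 8.15 ± 0.46 and 11.07 ± 0.26 in the same groups, and ESR1 was 12.47 ± 0.09 (SD, n = 3) in MCF. ESR1 was also 8.66 ± 0.12 (SD, n = 4) in BT20. The leukocyte markers PTPRC and CD3E and the fibroblast markers COL1A2 and DCN reached at most 2.51, 1.499, 3.63 and 3.75 on any array, while COL1A1 reached 11.35.

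**Figure D1:**
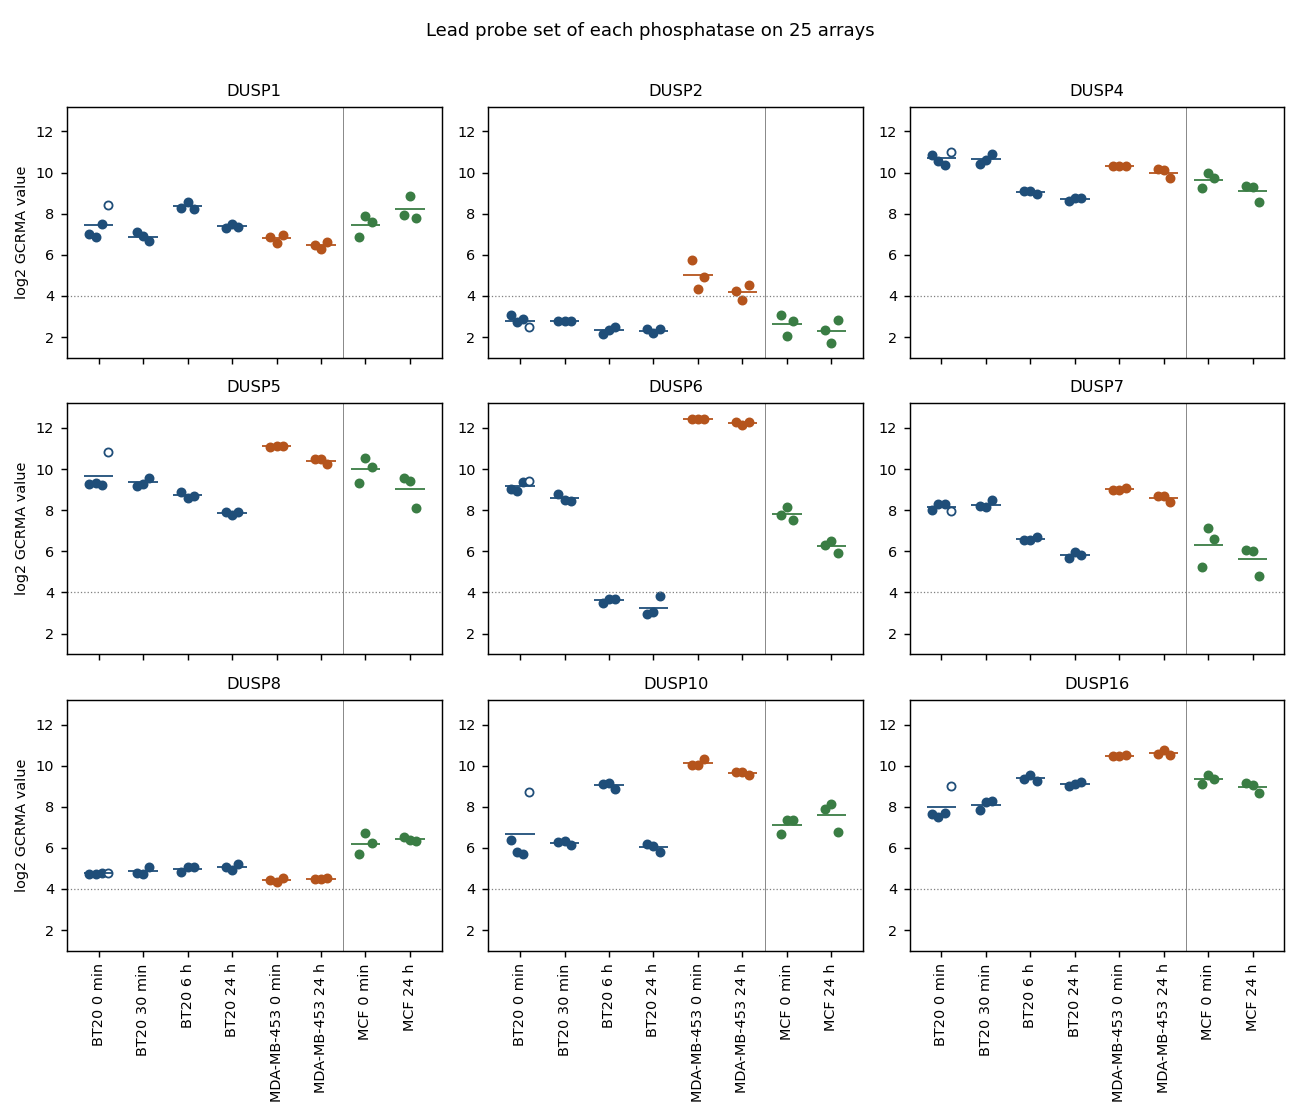
Log2 GCRMA values (vertical axis) of the lead probe set of each of the 9 phosphatases on all 25 arrays, by group (horizontal axis), with a bar at each group mean, an open circle for replicate 4 of BT20 at 0 min, a dotted line at log2 4 and a vertical line between the Part 1 and Part 2 arrays, whose levels are not compared. DUSP6 lay between 8.94 and 9.42 in BT20 at 0 min and between 2.96 and 3.81 at 24 h, and replicate 4 stood above the other 0 min arrays for DUSP1, DUSP5, DUSP10 and DUSP16.

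In BT20 the phosphatases separated into genes that fell and genes that rose. The ERK phosphatases DUSP6 and DUSP7 and the nuclear enzymes DUSP4 and DUSP5 were lower at 6 h and at 24 h, and the change of DUSP6 was -5.58 ± 0.20 and -5.93 ± 0.20 log2 units (SE, 3 against 4 arrays). DUSP16, which acts on JNK and p38, was higher at both times, and DUSP1 and DUSP10 were higher at 6 h but not at 24 h. No member passed the test at 30 min. The 3 rises at 6 h were not called when the 6 h arrays were set against replicate 4 alone, whereas the falls of DUSP4, DUSP5, DUSP6 and DUSP7 were called against all 4 arrays, against replicates 1 to 3 and against replicate 4.

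The call rule for a member was a two-sided limma p that stayed under 0.05 after Benjamini-Hochberg adjustment across the 12643 genes, and an error after a change is the standard error of that fit. At 6 h, 3 of 9 members rose and 5 fell, where 26.1% of all genes tested rose and 25.9% fell. At 24 h, 2 rose and 5 fell, where 24.1% of all genes rose and 18.3% fell. At 30 min none was called, where 0.00791% of genes were, 1 gene in all. Before adjustment 498 genes had a limma p under 0.05 at 30 min, and DUSP6 was among them. The median change of the 9 members was -0.06 at 30 min, -0.46 at 6 h and -0.61 at 24 h, against -0.015, -0.006 and 0.031 over all genes tested. The median at 6 h is the value of DUSP2, which lay below 4 on every BT20 array. That at 24 h is the value of DUSP10, which was not called and was 0.08 without replicate 4. The comparisons at 30 min, 6 h and 24 h share the 0 min arrays. A change in level on these arrays is relative to the other transcripts of the sample, and in bulk RNA fewer cells of a type and less RNA per cell cannot be told apart.

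**Figure D2:**
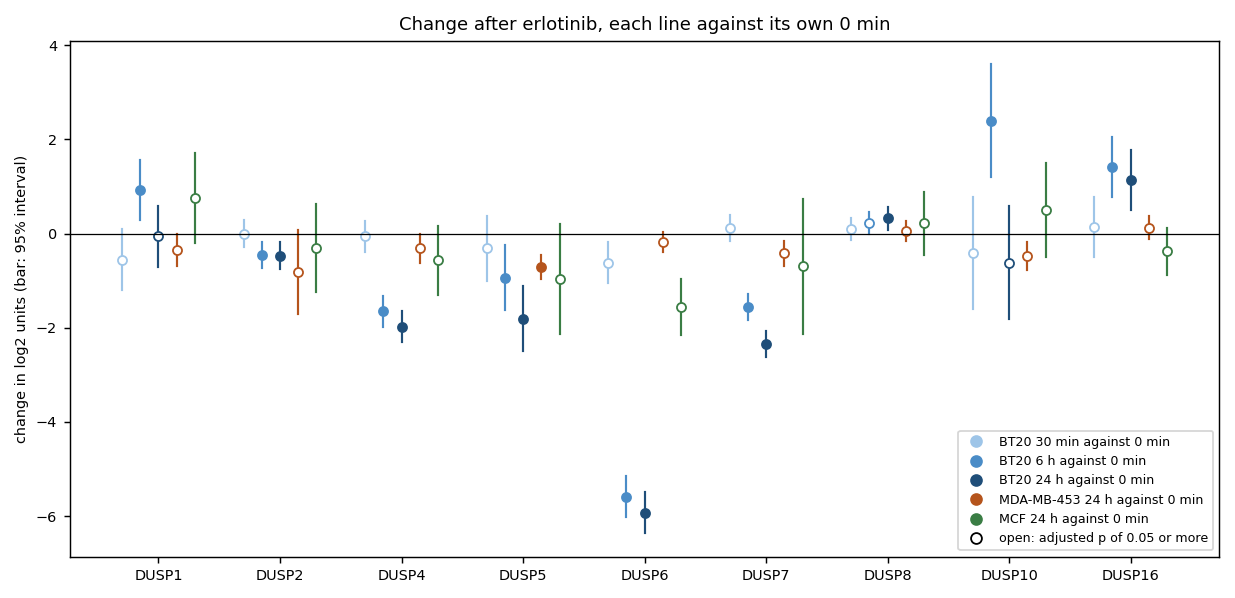
Change in log2 units (vertical axis) of the lead probe set of each phosphatase in BT20 at 30 min, 6 h and 24 h and in MDA-MB-453 and MCF at 24 h, each against 0 min of the same line, with 95% intervals that are not adjusted for the number of genes. Filled points had an adjusted p under 0.05, and the change of DUSP6 in BT20 was -5.58 at 6 h and -5.93 at 24 h.

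Of the cytoplasmic ERK phosphatases, DUSP6 carried the largest change of the family. Its log2 values in BT20 were 9.02, 8.94, 9.40 and 9.42 at 0 min, 8.81, 8.48 and 8.44 at 30 min, 3.50, 3.67 and 3.66 at 6 h and 2.96, 3.03 and 3.81 at 24 h. The 30 min arrays all lay just under the 0 min arrays, and all 6 later arrays lay below 4. The difference at 30 min was -0.62 ± 0.20 (adjusted p = 0.9159 in limma), with a 95% interval of -1.06 to -0.18 before adjustment, and did not pass the test. At 6 h DUSP6 fell 48.0-fold (adjusted p = 1.673e-08 in limma), and at 24 h it fell 60.9-fold (adjusted p = 1.208e-09 in limma). Because the treated means of 3.61 and 3.26 lie below 4, the size of these falls is inexact. The fall at 6 h was 5.51 ± 0.20 without replicate 4 and 5.81 ± 0.28 against replicate 4 alone. Between 6 h and 24 h the level changed by -0.34 ± 0.21 (adjusted p = 0.1927 in limma), with overlapping arrays. Without replicate 3 at 24 h, the highest of its group, that difference was -0.62 ± 0.17 and passed the test (adjusted p = 0.01446 in limma). The other DUSP6 probe sets differed the other way over this interval, by 0.116 ± 0.116 and 0.245 ± 0.199, and neither was called. All 6 h and 24 h values of these probe sets lie below 4, so a further fall after 6 h is not established.

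DUSP7, the relative of DUSP6 that shares its preference for ERK, had log2 values of 8.03, 8.32, 8.32 and 7.97 at 0 min, 8.20, 8.15 and 8.48 at 30 min, 6.57, 6.55 and 6.70 at 6 h and 5.66, 5.98 and 5.82 at 24 h. The first 2 time points overlapped, and each later one lay wholly below the one before it. DUSP7 fell by 1.55 ± 0.12 at 6 h (adjusted p = 8.497e-06 in limma) and by 2.34 ± 0.12 at 24 h (adjusted p = 3.331e-08 in limma). It also fell from 6 h to 24 h by 0.79 ± 0.13 (adjusted p = 0.0005177 in limma), and by 1.04 ± 0.21 with a batch term that measures 6 h against replicate 4 and 24 h against the other 0 min arrays (adjusted p = 0.002724 in limma), but was not called in a fit to all 25 arrays (adjusted p = 0.06969 in limma). In this comparison of 24 h with 6 h, 4 of 9 members were called, all lower. Of all genes 53.7% were called, 3743 of them higher and 3040 lower. With the batch term the differences of the same 4 members were 0.34 for DUSP1, 0.69 for DUSP5, -1.04 for DUSP7 and -0.25 for DUSP10. They then no longer shared a direction.

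Among the inducible nuclear enzymes, DUSP4, which acts on ERK and JNK, had log2 values of 10.88, 10.58, 10.38 and 10.99 at 0 min, 10.43, 10.62 and 10.90 at 30 min, 9.11, 9.12 and 8.94 at 6 h and 8.62, 8.79 and 8.78 at 24 h. The 0 min and 30 min arrays overlapped, and all later arrays lay more than 1 log2 unit below them. DUSP4 fell by 1.65 ± 0.15 at 6 h (adjusted p = 2.243e-05 in limma) and by 1.98 ± 0.15 at 24 h (adjusted p = 6.409e-07 in limma). Against replicate 4 alone the 6 h fall was 1.93 ± 0.20.

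DUSP5, a nuclear phosphatase selective for ERK, was 9.29, 9.31, 9.24 and 10.83 at 0 min, 9.18, 9.30 and 9.58 at 30 min, 8.89, 8.59 and 8.71 at 6 h and 7.90, 7.78 and 7.90 at 24 h. Replicate 4 stood far above the other 0 min arrays, and with or without it the 0 min, 6 h and 24 h arrays ran downward in that order with no overlap. DUSP5 fell by 0.94 ± 0.31 at 6 h (adjusted p = 0.02611 in limma) and by 1.80 ± 0.31 at 24 h (adjusted p = 0.0005566 in limma). The 6 h fall was 0.55 ± 0.11 without replicate 4 and 2.10 ± 0.16 against replicate 4 alone, and both passed the test. It did not pass without replicate 2 at 6 h (-0.87 ± 0.37, adjusted p = 0.07992 in limma) or without replicate 3 at 6 h (-0.93 ± 0.38, adjusted p = 0.07029 in limma). The difference of 24 h from 6 h was -0.87 ± 0.34 (adjusted p = 0.04623 in limma), and -0.87 ± 0.11 without replicate 4 (adjusted p = 1.768e-05 in limma). It turned to 0.69 ± 0.19 with the batch term, so its direction rests on whether the 6 h arrays are taken to share a shift with replicate 4. With replicate 4 kept, the difference missed the threshold when any single 6 h or 24 h array was left out, at -0.79 to -0.94.

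DUSP1, which acts on p38 and JNK as well as ERK, behaved otherwise, at 7.01, 6.85, 7.47 and 8.43 at 0 min, 7.10, 6.91 and 6.66 at 30 min, 8.29, 8.58 and 8.23 at 6 h and 7.30, 7.51 and 7.34 at 24 h. The 6 h arrays were above all others except replicate 4 at 0 min, which lay among them. DUSP1 rose by 0.93 ± 0.29 at 6 h (adjusted p = 0.02094 in limma), by 1.26 ± 0.16 without replicate 4, and changed by -0.06 ± 0.23 against replicate 4 alone (adjusted p = 0.8984 in limma). The rise was not called without replicate 1 or 2 at 0 min or replicate 2 at 6 h, at 0.78, 0.73 and 0.82. At 24 h the difference from 0 min was -0.06 ± 0.29, with a 95% interval of -0.70 to 0.58. From 6 h to 24 h it fell by 0.98 ± 0.32 (adjusted p = 0.02014 in limma), but with the batch term the difference was 0.34 ± 0.28 and not called. That fall also lost its call without replicate 1 or 3 at 24 h or replicate 2 at 6 h, at -0.94, -0.96 and -0.88.

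DUSP2, a nuclear enzyme best known from activated lymphocytes, gave values of 3.06, 2.74, 2.85 and 2.47 at 0 min and of 2.15, 2.33 and 2.47 at 6 h, all below 4. At 24 h it was 2.37, 2.18 and 2.38, and at 30 min 2.80, 2.77 and 2.77. The fit called it lower at 6 h by 0.46 ± 0.13 (adjusted p = 0.0117 in limma) and at 24 h by 0.47 ± 0.13 (adjusted p = 0.01117 in limma). At 6 h the call was lost against replicate 4 alone (-0.15 ± 0.15) and without replicate 1 at 6 h (-0.378 ± 0.145), and at 24 h without replicate 2 (-0.40 ± 0.15). In a fit to all 25 arrays neither call held (adjusted p = 0.2254 and 0.2474 in limma).

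Of the phosphatases of JNK and p38, DUSP16 had log2 values of 7.63, 7.52, 7.70 and 9.01 at 0 min, 7.82, 8.21 and 8.29 at 30 min, 9.34, 9.57 and 9.23 at 6 h and 9.02, 9.12 and 9.18 at 24 h. All 6 later arrays were above every 0 min array, but replicate 4 came just under the lowest 24 h array. DUSP16 rose by 1.41 ± 0.29 at 6 h (adjusted p = 0.003083 in limma) and by 1.14 ± 0.29 at 24 h (adjusted p = 0.00732 in limma). Without replicate 4 the rises were 1.76 ± 0.13 and 1.49 ± 0.13. Against replicate 4 alone the 6 h difference was 0.37 ± 0.18 (adjusted p = 0.2492 in limma).

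DUSP10 showed the widest spread at 0 min, at 6.37, 5.82, 5.70 and 8.73, and was 6.26, 6.31 and 6.14 at 30 min, 9.12, 9.16 and 8.86 at 6 h and 6.19, 6.11 and 5.81 at 24 h. Replicate 4 and the 6 h arrays formed 1 high set and the other 9 BT20 arrays a low set. The 6 h rise was 2.40 ± 0.55 (adjusted p = 0.004837 in limma), 3.09 ± 0.16 without replicate 4, and 0.32 ± 0.23 against replicate 4 alone (adjusted p = 0.4364 in limma). The 24 h difference from 0 min was -0.61 ± 0.55, with a 95% interval of -1.81 to 0.58, and 0.08 ± 0.16 without replicate 4. From 6 h to 24 h DUSP10 fell by 3.01 ± 0.59 (adjusted p = 0.001258 in limma), and with the batch term the difference was -0.25 ± 0.28 and not called.

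DUSP8 was low and moved little, at 4.72, 4.72, 4.77 and 4.80 at 0 min, 4.76, 4.74 and 5.08 at 30 min, 4.84, 5.05 and 5.06 at 6 h and 5.08, 4.93 and 5.22 at 24 h. All 6 h and 24 h arrays lay above those at 0 min, while 30 min overlapped them. The 6 h difference was 0.23 ± 0.11 (adjusted p = 0.0921 in limma), and at 24 h DUSP8 rose by 0.32 ± 0.11 (adjusted p = 0.03138 in limma). The 24 h call was lost without replicate 1, 2 or 3 at 0 min or replicate 1 or 3 at 24 h, with values of 0.25 to 0.33. It was also lost with quantile normalization repeated (0.24), with arrays centred on the median (0.28), with the trended robust step and in a fit to all 25 arrays, at an adjusted p of 0.05375 to 0.1335 in limma over these 4.

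**Figure D3:**
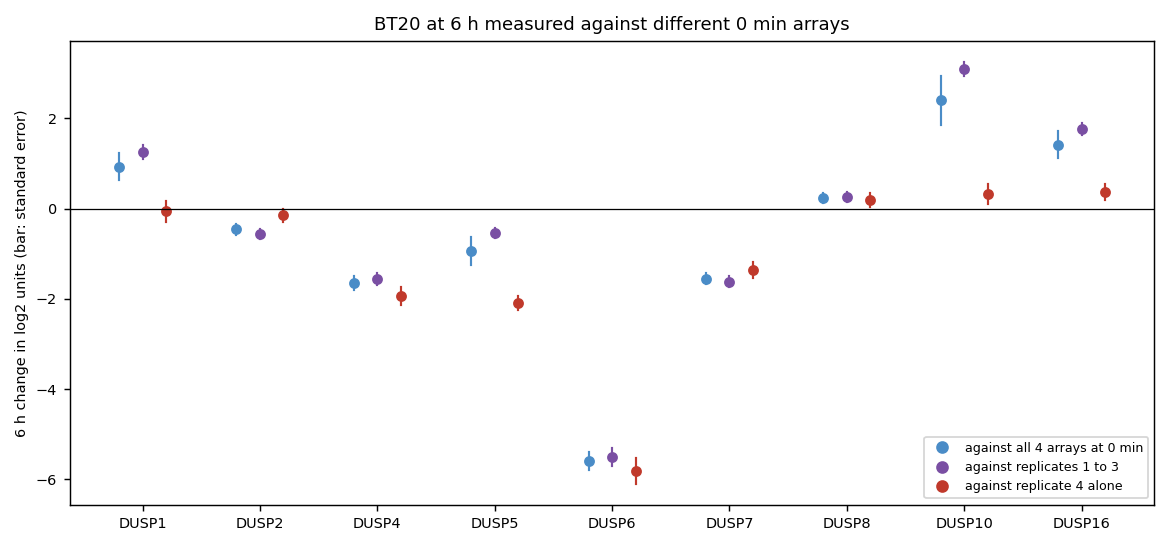
The 6 h change of each phosphatase in BT20 in log2 units (vertical axis, with standard errors), measured against all 4 arrays at 0 min, against replicates 1 to 3 and against replicate 4 alone. DUSP4, DUSP6 and DUSP7 gave falls of like size each time, while DUSP10 was 3.09 against replicates 1 to 3 and 0.32 against replicate 4.

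At 6 h the members called were 3 higher and 5 lower without replicate 4, where 66.5% of all genes were called, and 0 higher and 4 lower against replicate 4 alone, where 7.23% were. At 24 h they were 2 higher and 5 lower with and without it, where 55.5% of all genes were called without it. The part of the high values of replicate 4 in the 6 h results was not tested beyond these refits.

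The other probe sets of the same genes mostly moved with the leads. Of the 21 probe sets 18 were tested, and in a fit to every probe set 6 rose and 9 fell at 6 h, where 48.2% of all 24585 probe sets tested were called, and 4 rose and 9 fell at 24 h, where 39% were. All 3 DUSP6 probe sets fell, the second (208891_at) from 9.24 to 9.55 at 0 min to 3.18 to 3.31 at 6 h and 3.15 to 3.54 at 24 h, and the third (208893_s_at) with changes of -3.25 ± 0.19 at 6 h and -3.00 ± 0.19 at 24 h.

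DUSP4 was the member whose probe sets disagreed over the course. Probe set 204014_at had a mean of 10.85 at 0 min and read 8.41, 8.02 and 7.94 at 6 h and 9.23, 9.35 and 9.22 at 24 h, so it was lowest at 6 h and partly back at 24 h. Its change from 6 h to 24 h was 1.15 ± 0.14 (adjusted p = 6.85e-05 in limma), and that of 204015_s_at was 0.46 ± 0.13 (adjusted p = 0.01703 in limma). The lead, 226034_at, gave -0.32 ± 0.16 (adjusted p = 0.1095 in limma) over the same interval. All 3 agree that DUSP4 was lower at both times than at 0 min, by 1.58 to 2.72 log2 units, and they differ on whether it went on falling.

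The 2 tested probe sets of DUSP10 rose together at 6 h, 215501_s_at by 1.39 ± 0.29, and its replicate 4 value of 5.85 was again above the 4.27 to 4.84 of the other 0 min arrays. DUSP16 had a second set, 224336_s_at, that rose by 1.49 ± 0.28 at 6 h and 0.99 ± 0.28 at 24 h, while 1555399_a_at stayed near 4.2 and was called at neither time. DUSP8 had 238594_x_at, which rose by 0.46 ± 0.16 at 6 h and 0.52 ± 0.16 at 24 h. The second tested probe set of DUSP1, 201044_x_at, near 4.1, did not follow the lead, with -0.12 ± 0.13 at 6 h. The probe sets 226578_s_at of DUSP1, 214793_at of DUSP7 and 1563505_at of DUSP16 lay below 4 on too many arrays to be tested. Averaging the probe sets of a gene, the low ones included, gave smaller changes that were still called, at 0.43 for DUSP1 at 6 h, -0.75 and -1.31 for DUSP7 at 6 h and 24 h, and 0.69 and 0.53 for DUSP16. For DUSP4 the average turned the difference of 24 h from 6 h to 0.43 ± 0.10 (adjusted p = 0.00282 in limma).

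**Figure D4:**
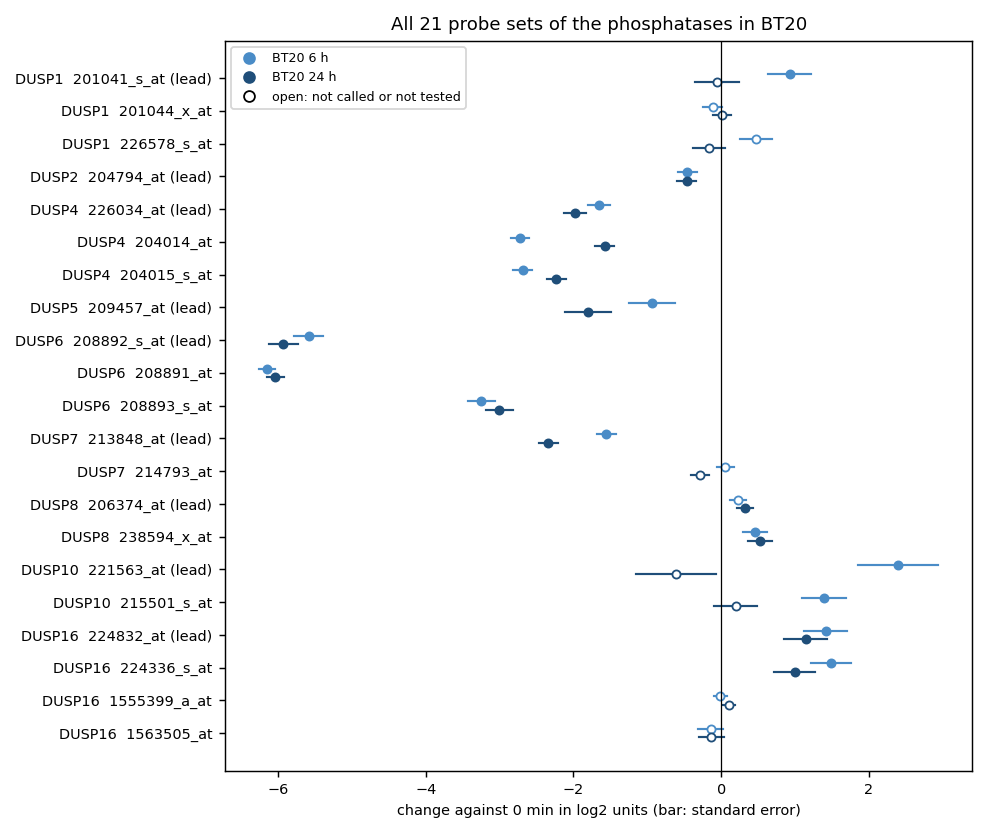
Change against 0 min in log2 units (horizontal axis, with standard errors) of all 21 probe sets of the 9 phosphatases in BT20 at 6 h and 24 h. Filled points were called, the DUSP6 and DUSP4 sets all lie below 0, and 2 of the 3 DUSP4 sets lie closer to 0 at 24 h than at 6 h.

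In MDA-MB-453 at 24 h 1 of 9 members passed the test, DUSP5, where 2.64% of all genes tested fell and 5.66% rose. In 5 of 9, DUSP4, DUSP5, DUSP6, DUSP7 and DUSP10, every 24 h array lay below every 0 min array, where 12.5% of all genes did so. DUSP5 was 11.08, 11.14 and 11.11 at 0 min and 10.47, 10.51 and 10.23 at 24 h, with no overlap, and fell by 0.71 ± 0.11 (adjusted p = 0.01347 in limma). The call was lost without any single 0 min array or without replicate 1 at 24 h, with changes of -0.69 to -0.74 and adjusted p of 0.05165 to 0.05983 in limma. It was also lost in a fit to all 25 arrays, in which the lines share their spread (adjusted p = 0.38 in limma).

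The other lead probe sets were not called in MDA-MB-453. DUSP6 was 12.42, 12.42 and 12.44 at 0 min and 12.29, 12.14 and 12.30 at 24 h, a difference of -0.19 ± 0.09 (adjusted p = 0.2675 in limma) with a 95% interval of -0.40 to 0.03. The third DUSP6 probe set, 208893_s_at, was 11.10, 11.31 and 11.55 and then 10.66, 10.60 and 10.43, and fell by 0.76 ± 0.14 (adjusted p = 0.03821 in limma, over every probe set). DUSP7 was 8.98, 8.98 and 9.06 at 0 min and 8.70, 8.68 and 8.40 at 24 h, a difference of -0.42 ± 0.11 that did not pass (adjusted p = 0.07286 in limma), and DUSP10 differed by -0.47 ± 0.12 (adjusted p = 0.06856 in limma).

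DUSP4 in MDA-MB-453 was 10.31, 10.31 and 10.30 and then 10.15, 10.10 and 9.73, a difference of -0.31 ± 0.13 (adjusted p = 0.2016 in limma). DUSP2, above 4 on 5 of these 6 arrays, was 5.76, 4.33 and 4.94 at 0 min and 4.24, 3.81 and 4.54 at 24 h, with overlap. DUSP1 differed by -0.36 ± 0.14, DUSP8 by 0.05 ± 0.09 and DUSP16 by 0.13 ± 0.10, none of them called. The median change of the 9 members was -0.36 against 0.02 over all genes tested.

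In MCF no member passed the test at 24 h, where 0.00791% of all genes did, 1 gene in all, and 736 genes had an unadjusted p under 0.05. DUSP6 was 7.75, 8.14 and 7.53 at 0 min and 6.32, 6.53 and 5.90 at 24 h, with no overlap, a difference of -1.56 ± 0.25 (adjusted p = 0.1983 in limma) and a 95% interval of -2.16 to -0.96 before adjustment. Its other probe sets differed by -1.67 ± 0.19 and -1.02 ± 0.25. In the fit to all 25 arrays, which gives MCF a smaller spread than its own arrays show, DUSP6 was called (adjusted p = 0.0001043 in limma) and was the only member that was. The median residual SD over genes was 0.316 in MCF, 0.194 in BT20 and 0.169 in MDA-MB-453.

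The remaining members overlapped between 0 min and 24 h in MCF, so that 1 of 9 did not, where 11.8% of all genes tested did not overlap. DUSP5 was 9.34, 10.53 and 10.09 and then 9.55, 9.40 and 8.13, a difference of -0.96 ± 0.48. DUSP4 was 9.23, 9.96 and 9.75 and then 9.34, 9.32 and 8.58, and DUSP7 was 5.22, 7.14 and 6.58 and then 6.07, 6.02 and 4.78. The spread of these groups is as wide as their differences of -0.57 ± 0.30 and -0.69 ± 0.59. DUSP1 was 6.87, 7.90 and 7.58 and then 7.95, 8.88 and 7.78, a difference of 0.75 ± 0.39, and DUSP10 differed by 0.50 ± 0.41, DUSP16 by -0.37 ± 0.20 and DUSP8 by 0.22 ± 0.27. DUSP2 stayed below 4 on all 6 arrays. The median over the 9 members was -0.37 against -0.01 over all genes.

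The 24 h change itself was then compared between the lines, by limma with weights that allow each line its own spread, and again with each line's spread kept wholly apart. On simulated data the weighted fit made too many false calls, so the second fit was added and its calls are given beside the weighted ones. Between BT20 and MDA-MB-453, 4 of 9 members differed, where 22.2% of all genes did. The change in BT20 minus that in MDA-MB-453 was -5.74 ± 0.24 for DUSP6 (adjusted p = 4.499e-13 in limma), -1.92 ± 0.27 for DUSP7 (adjusted p = 1.404e-05 in limma) and -1.66 ± 0.22 for DUSP4 (adjusted p = 5.69e-06 in limma). For DUSP16 it was 1.02 ± 0.34 (adjusted p = 0.03269 in limma). The DUSP6 size is inexact, since the BT20 mean at 24 h lies below 4, and ran from -6.01 to -4.65 over the alternatives. With separate spreads DUSP6, DUSP7, DUSP4 and DUSP16 were called again, at an adjusted p of 1.837e-11, 1.133e-07, 5.472e-06 and 0.02677 in limma. DUSP5 was called in addition (-1.10 ± 0.33, adjusted p = 0.02601 in limma, against 0.05089 with weights). The fit with separate spreads called 23.2% of all genes. The weighted DUSP5 difference was also called without replicate 4 (-0.71 ± 0.22), without any other BT20 array at 0 min (-1.22 to -1.24) and without replicate 3 of MDA-MB-453 at 24 h (-1.18). DUSP16 lost its call without replicate 1, 2 or 3 at 0 min or replicate 2 or 3 at 24 h of BT20, and without any MDA-MB-453 array at 0 min or replicate 1 or 3 there at 24 h, with differences of 0.87 to 1.04. It was also not called with no filter on low values (adjusted p = 0.06229 in limma) or without array weights (adjusted p = 0.06571 in limma).

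Between BT20 and MCF, 3 of 9 members differed, where 7.57% of all genes did. The change in BT20 minus that in MCF was -4.37 ± 0.39 for DUSP6 (adjusted p = 1.537e-07 in limma), -1.41 ± 0.35 for DUSP4 (adjusted p = 0.01226 in limma) and -1.65 ± 0.43 for DUSP7 (adjusted p = 0.01851 in limma). The DUSP6 size is inexact here too, and ran from -4.64 to -3.57 over the alternatives. With separate spreads DUSP6 (adjusted p = 5.712e-07 in limma) and DUSP4 (0.02619) were called again, DUSP7 was not (0.1654) and DUSP16 was, at 1.52 ± 0.36 (adjusted p = 0.008477 in limma, against 0.1005 with weights). Here the fit with separate spreads called 10.2% of all genes. Without replicate 4 the weighted DUSP16 difference was 1.87 ± 0.30 and called. Single MCF arrays decided others: DUSP7 lost its call without replicate 1 at 0 min (-1.10), replicate 1 at 24 h (-1.43) or replicate 2 at 24 h (-1.45), and DUSP4 without replicate 3 at 0 min (-1.46), replicate 1 at 24 h (-1.28) or replicate 2 at 24 h (-1.29).

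Between MDA-MB-453 and MCF no member's change was called to differ, where 0.815% of all genes were, 103 genes, and 822 had an unadjusted p under 0.05. The smallest p among the members was that of DUSP6, at 1.38 ± 0.39 (adjusted p = 0.1403 in limma), with a 95% interval of 0.57 to 2.18 before adjustment, and 0.07011 with separate spreads.

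Before treatment the lines of Part 1 stood at different levels for most genes tested, the phosphatases among them. The 8 members other than DUSP2 were called between BT20 and MDA-MB-453 at 0 min, where 74.6% of all genes tested were. DUSP2 was called too, but it passed the filter on low values only through MDA-MB-453, so that it had to differ here. It was 2.47 to 3.06 in BT20, below 4, and 4.33 to 5.76 in MDA-MB-453, and no size is given for it. Of the 8 others 5 were lower in BT20, by differences of -3.47 ± 0.48 for DUSP10, -3.23 ± 0.18 for DUSP6, -2.52 ± 0.26 for DUSP16, -1.44 ± 0.28 for DUSP5 and -0.85 ± 0.12 for DUSP7, each with an adjusted p of 0.0001557 or less in limma. The JNK and p38 phosphatase DUSP8 was higher in BT20 by 0.32 ± 0.10 (adjusted p = 0.007867 in limma), DUSP4 by 0.40 ± 0.15 and DUSP1 by 0.62 ± 0.27. The last pair lost their calls without replicate 4, at 0.31 ± 0.15 and 0.29 ± 0.18, and so did DUSP4 without replicate 1 of BT20 or replicate 1 or 3 of MDA-MB-453 (0.34 to 0.40) and DUSP1 without replicate 3 of BT20 or any MDA-MB-453 array (0.51 to 0.705). DUSP1 also lost its call with no filter on low values, with quantile normalization repeated and with arrays centred on the median (0.56 to 0.62). With the probe sets of a gene averaged, DUSP4 was higher in BT20 by 1.03 ± 0.11 (adjusted p = 2.981e-07 in limma). Across the Part 1 groups DUSP6 ran from 12.43 ± 0.01 (SD, n = 3) in MDA-MB-453 at 0 min to 12.24 ± 0.09 there at 24 h, 9.19 ± 0.25 (SD, n = 4) in BT20 at 0 min, 8.57 ± 0.21 at 30 min, 3.61 ± 0.09 at 6 h and 3.26 ± 0.47 at 24 h. Of the neighbours in that order, only the 6 h and 24 h groups of BT20 had arrays that overlapped.

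Over the 13 BT20 arrays, the genes whose values followed the DUSP6 lead most closely were PTGER4 (r = 0.9926), SPRY4 (0.9893), RGS2 (0.9869), MAFF (0.9866) and EPHA2 (0.9864). These correlations describe arrays of 4 time points and rest on the step between the early and the late ones. PTGER4, a prostaglandin E receptor, went from 11.96 at 0 min to 10.50 at 6 h and 10.40 at 24 h, and RGS2, a regulator of G protein signalling, from 9.72 to 7.35 and 7.32. Among the family, the correlation with DUSP6 was 0.97 for DUSP4, 0.96 for DUSP7, 0.85 for DUSP2 and 0.81 for DUSP5, and it was -0.34 for DUSP10, -0.46 for DUSP1, -0.70 for DUSP8 and -0.83 for DUSP16. Among all genes tested, the positive ones stood at percentiles of 99.8, 99.6, 95.2 and 92.9 in that order. The negative ones stood at percentiles of 36.5, 30.2, 15.2 and 6.4. The value for DUSP2 comes from arrays that all read below 4.

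Of the kinases that the phosphatases act on and the kinases above them, about as large a share fell as over all genes. Of 20 genes of the MAP kinase cascade 14 were tested, and in BT20 at 24 h 5 rose and 3 fell, with a median of -0.01, where 24.1% of all genes rose and 18.3% fell. MAPK10, the JNK3 gene and 1 of the 5, had a mean of 5.80 at 24 h and of 2.89 at 0 min, and its means were below 4 in every other group given here, so that it passed the filter through the group where it is high. MAP2K5, which activates ERK5, rose by 1.21 ± 0.19, and MAPK8, the JNK1 gene, fell by 0.51 ± 0.09. At 6 h 1 rose and 2 fell, where 26.1% of all genes rose and 25.9% fell, none was called against replicate 4 alone, where 7.23% of all genes were, and none was called in MDA-MB-453 or MCF.

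Other transcripts listed as induced by ERK fell broadly in BT20. The list was chosen with earlier results of these data known, so its counts are a description and not independent support. Of 19 tested, 15 fell at 6 h and 17 at 24 h and none rose, with medians of -1.16 and -2.42. Over all genes 25.9% fell at 6 h and 18.3% at 24 h. Against replicate 4 alone all 19 fell at 6 h with a median of -1.58, where 7.23% of all genes were called in either direction. SPRY4, an inhibitor of receptor tyrosine kinase signalling, fell by 5.12 ± 0.19 at 6 h and 4.76 ± 0.19 at 24 h, sizes that are inexact because the treated means of 2.13 and 2.49 lie below 4. EPHA4, an ephrin receptor, fell by 4.58 ± 0.20 at 24 h and ETV4, an ETS transcription factor, by 2.65 ± 0.13. Of the same 19 genes 2 fell in MDA-MB-453 and 1 in MCF, with medians of -0.175 and -0.34, where 2.64% of all genes fell in MDA-MB-453 and 0.00791% were called in MCF, 1 gene in all.

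Of 16 other dual-specificity phosphatases 11 were tested. In BT20 at 24 h 3 were higher and 5 lower, with a median of -0.03, where 24.1% of all genes rose and 18.3% fell. Their list was not limited to enzymes outside the MAP kinase group, since it held DUSP9. DUSP18, DUSP22 and DUSP28, atypical small members of the superfamily, rose by 0.98 ± 0.17, 0.97 ± 0.14 and 0.65 ± 0.12. DUSP22 was also higher in MDA-MB-453 at 24 h, by 0.48 ± 0.10 (adjusted p = 0.0351 in limma). Of 6 further phosphatases known to act on MAP kinases, 1 rose and 1 fell at 24 h in BT20, shares near those over all genes. PPM1B, a metal-dependent phosphatase, rose by 0.46 ± 0.12 and PPP2CA, a catalytic subunit of protein phosphatase 2A, fell by 0.31 ± 0.08, while the scaffold subunit gene PPP2R1A differed by -0.28 ± 0.18. At 6 h 4 of the 6 rose and 1 fell, where 26.1% of all genes rose and 25.9% fell, and against replicate 4 alone none was called, where 7.23% of all genes were.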

How the data were processed

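The deposited values are on a log2 scale, 1 per probe set and array, and the authors made them with GCRMA 2.20.0 in R 2.11.1 per the submitters' processing notes. GCRMA models background from probe sequence and normalizes arrays together, so low values are compressed. The 75th percentile was 7.65 to 7.81 on the 19 arrays of Part 1 (BT20, MDA-MB-453) and 7.27 to 7.32 on the 6 of Part 2 (MCF), so levels were compared within a part only. Of 54613 probe sets, 41091 carried 1 symbol, 1801 several and 11721 none in the platform annotation, updated with RefSeq names (GRCh38.p14).

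Changes within a line were fitted with limma 3.58.1 in R 4.3.3 on that line's arrays alone, since the lines differed in spread, and differences between lines on all 25 arrays with weights per line. The code was tested on simulated data. There the weighted comparisons between lines made too many false calls, so fits with separate spreads were added after seeing the data. Same-numbered replicates did not vary together in most pairs (a correlation over 0.1 in 3 of 18 pairs in BT20 and 1 of 3 in each other line), so they were not paired. The correlations ran from -0.493 to 0.362 in BT20, from -0.642 to 0.163 in MDA-MB-453 and from -0.49 to 0.796 in MCF. With 3 pairs a line, pairing in MDA-MB-453 and MCF cannot be settled. In BT20 the deviations at 0 min were taken from a group mean that included replicate 4. The pairs with 0 min arrays are therefore weak evidence on pairing in BT20. The number of arrays limits the precision. All 9 members are named, with at most 3 genes per pathway list (smallest p in BT20 at 24 h) and the 5 genes most like DUSP6. The members, lists and tests were chosen with earlier results of these data known. Alternatives were other filters on low values (none, or log2 6), averaging or testing all probe sets, a trended robust empirical Bayes step, repeated quantile normalization, median centring, 1 fit to all arrays, a replicate block, a batch term and leaving out each array.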

Additional observations from a re-analysis of the deposited data

Results flagged for a closer look

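Replicate 4 of BT20 at 0 min stood apart from the other 3 arrays of its group for DUSP5 (10.83), for DUSP16 (9.01) and for the untested DUSP1 probe set 226578_s_at (3.64). The gap to the nearest array divided by the range was 0.957, 0.883 and 0.960, above the limit that Dixon's test sets for 4 arrays at the 95% level, in 3 of 21 probe sets examined. Chance alone flags about 1 in 20 groups, and the 21 probe sets share the same 4 arrays.

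The 24 h change differed between lines by a weighted test of the difference itself. BT20 minus MDA-MB-453 was -5.74 for DUSP6, -1.92 for DUSP7, -1.66 for DUSP4 and 1.02 for DUSP16. BT20 minus MCF was -4.37 for DUSP6, -1.65 for DUSP7 and -1.41 for DUSP4, and DUSP7 was not called with separate spreads. Of 24 alternatives run for each difference, DUSP16 was called in 12 for BT20 minus MDA-MB-453. For BT20 minus MCF, DUSP4 was called in 21 and DUSP7 in 20.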

How the results depend on the processing

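With the batch term, which measures 6 h in BT20 against replicate 4 alone, 4 of 9 members were called at 6 h instead of 8, and the DUSP1 change turned from 0.926 to -0.064. The 24 h against 6 h difference then turned from -0.98 to 0.34 for DUSP1 and from -0.87 to 0.69 for DUSP5. In 1 fit to all 25 arrays, 2 members were called for 24 h against 6 h, 0 in MDA-MB-453 and 1 in MCF. That fit called 5.77% of all genes in MDA-MB-453 and 3.2% in MCF. The trended robust step called 2 members in MDA-MB-453, DUSP5 and DUSP10. For MDA-MB-453 minus MCF averaging probe sets and dropping the array weights each called 1, DUSP6. With a replicate block 0 members were called in MDA-MB-453 (DUSP5 -0.71, adjusted p = 0.09704 in limma). Leaving out 1 array gave 2 to 3 members for 24 h against 6 h, 0 to 1 in MDA-MB-453 and 1 to 4 for BT20 minus MCF. It gave 6 to 8 at 6 h, 6 to 7 at 24 h, 3 to 5 for BT20 minus MDA-MB-453 and 7 to 9 for the levels at 0 min. The number of all genes called moved in such refits too. Without replicate 1 of MCF at 24 h, BT20 minus MCF called 1 member and 455 genes, against 957 genes with all arrays. Counts over all genes moved more: 6579 at 6 h became 914 with the batch term, 1049 in MDA-MB-453 became 3 with the replicate block, and 1 in MCF became 404 in the fit to all arrays. The count for 24 h against 6 h went from 6783 to 3319 with the batch term, that for BT20 minus MCF from 957 to 1949 and that for MDA-MB-453 minus MCF from 103 to 296 without array weights. The count at 30 min, 1 gene, ran from 0 to 3. Testing every probe set called 11859, 9596 and 12552 in BT20 at 6 h, at 24 h and between them. These are counts of 24585 probe sets and not of 12643 genes, with shares of 48.2%, 39% and 51.1%. The falls of DUSP4, DUSP5, DUSP6 and DUSP7 in BT20 at 24 h kept their direction and their call under every alternative run. Below log2 4 the signal is close to background, which limits the sizes given for DUSP6 and SPRY4 after treatment and for DUSP2. The causes of these shifts were not tested.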
